A study of Mus musculus with 4 samples.

Results

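The replication-dependent histone genes encode the H1, H2A, H2B, H3 and H4 proteins that package newly copied DNA. In the mouse they carried symbols beginning with Hist1h, Hist2h, Hist3h or Hist4h. All 70 such symbols among the 45803 in the deposited table were taken: 6 H1, 20 H2A, 19 H2B, 12 H3 and 13 H4 genes, in 76 transcripts. Their level was followed in epidermal keratinocytes of newborn mice (postnatal day 0) in 4 RNA-seq libraries. The 2 cKO libraries came from K14Cre,Mettl14F/F animals, in which both alleles of Mettl14 are floxed. The 2 control libraries came from K14Cre,Mettl14F/+ animals, which carry the same Cre and 1 floxed allele, so the controls were heterozygous in the cells that make Cre although their columns are named WT. Cre was driven by the keratin 14 promoter, which is active in basal keratinocytes, and Mettl14 encodes a subunit of the complex that writes N6-methyladenosine on RNA. Each genotype had a library numbered 1 and a library numbered 2, and values below stand in the order control 1, control 2, cKO 1, cKO 2.

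Replication-dependent histone mRNAs are made in S phase, when DNA is copied, and are removed when copying ends. Most have no introns and no poly(A) tail: the transcript ends just after a short stem-loop that is bound by the protein SLBP, and a particle containing the U7 small nuclear RNA directs the cut that forms this end. The genes sit in clusters, many H2A genes lie head to head with an H2B gene, and in dividing keratinocytes of the basal layer all these kinds of histone are needed together. Some of these genes are also known to give transcripts with a poly(A) tail, which are seen in cells that have stopped dividing.

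The stem-loop is the sequence feature shared by the members and was not used to choose them, so its forms are shown first. Each line gives 26 nt of the annotated transcript, 5′ to 3′ as DNA letters, with the paired bases of the stem in capitals and the loop and flanks in lower case. The transcripts are those of GENCODE M21 (GRCm38).
Hist1h1e: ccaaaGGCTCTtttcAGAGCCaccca
Hist1h2ab: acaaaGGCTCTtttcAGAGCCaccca
Hist1h3c: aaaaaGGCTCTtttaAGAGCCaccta
Hist1h4h: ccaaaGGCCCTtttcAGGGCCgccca
Hist1h4i: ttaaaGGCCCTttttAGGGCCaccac
Hist1h4b: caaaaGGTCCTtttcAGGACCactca
Hist1h4a: ccaaaGGCCCTtctcAGGGCCgccca
Hist1h3g: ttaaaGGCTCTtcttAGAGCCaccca
Hist2h2ac: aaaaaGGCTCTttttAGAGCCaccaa

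The 16-letter stem-loop, searched for within 250 nt after the stop codon on the transcript's strand, was found in 44 of the 67 members with a coding main transcript. It lay 22 to 59 nt after the stop codon, with a median of 32.5 nt. Among the 50 members with more than 30 nt annotated after the stop codon, 88% held one, against 0.0437% of the 11445 other coding genes tested, which is 5 genes. One of those 5 was H2afx, the H2A variant best known for its role at DNA breaks. The form of Hist1h1e and Hist1h2ab was shared by 24 members of H1, H2A, H2B and H3, and the form of Hist1h3c by 6 members of H1, H2B and H3. All H4 members with a stem-loop had another stem: 7 had the form of Hist1h4h, 2 that of Hist1h4i, 2 that of Hist1h4b and 1 that of Hist1h4a. The forms of Hist1h3g and Hist2h2ac occurred in 1 member each. In 17 members the annotation ended at most 30 nt after the stop codon, and no stem-loop could be found there for want of sequence. Among the 6 others without one were Hist1h2bc, Hist1h2bq, Hist1h2br and Hist2h2be, whose annotated transcripts run over 50 nt past the stop codon.

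Promoters are shown because genes of 4 of the 5 types shared a motif that H4 genes mostly lacked. RefSeq (GRCm38.p6) windows of 250 bases before to 50 after the start were matched to 61 members, which gave 59 different windows. Both strands were searched for TATAAA, the TATA box, for CCAAT and for ATTTGCAT, the octamer bound by POU factors, and capitals mark these letters or their reverse complements. The window of Hist1h2ac spans the 250 nt that part this H2A gene from the H2B gene Hist1h2bc on the other strand.
Hist1h2ac, GRCm38.p6 chr13:23683910-23684209, minus strand: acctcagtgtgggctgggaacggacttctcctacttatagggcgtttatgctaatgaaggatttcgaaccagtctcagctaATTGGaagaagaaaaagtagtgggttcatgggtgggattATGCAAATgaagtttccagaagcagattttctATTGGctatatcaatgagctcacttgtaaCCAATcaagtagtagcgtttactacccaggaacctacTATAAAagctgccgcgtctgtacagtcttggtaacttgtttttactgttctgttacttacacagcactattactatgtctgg
Hist1h2ab, GRCm38.p6 chr13:23750838-23751137, plus strand: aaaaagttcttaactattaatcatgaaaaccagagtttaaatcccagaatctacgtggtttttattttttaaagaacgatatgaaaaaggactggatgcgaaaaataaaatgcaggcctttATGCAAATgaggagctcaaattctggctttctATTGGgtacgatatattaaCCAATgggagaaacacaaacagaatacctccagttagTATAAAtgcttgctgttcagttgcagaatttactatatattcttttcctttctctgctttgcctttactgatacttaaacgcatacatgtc
Hist1h4h, GRCm38.p6 chr13:23530794-23531093, plus strand: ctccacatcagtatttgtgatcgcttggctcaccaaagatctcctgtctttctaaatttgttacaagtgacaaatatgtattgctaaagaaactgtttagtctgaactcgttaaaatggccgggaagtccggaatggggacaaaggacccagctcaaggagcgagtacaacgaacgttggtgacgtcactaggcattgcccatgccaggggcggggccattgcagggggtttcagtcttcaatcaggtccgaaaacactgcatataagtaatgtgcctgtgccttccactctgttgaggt

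CCAAT occurred in 84.7% of the histone windows and in 37.4% of all 32851 RefSeq windows of this length. It was present in all 5 H1, 18 H2A, 14 H2B and 10 H3 windows and in 25% of the 12 H4 windows. TATAAA occurred in 57.6% of histone windows against 13.6% of all windows, with shares from 40% in H3 to 66.7% in H4. ATTTGCAT occurred in 20.3% against 1.74%: it was found in 7 H2A and 5 H2B windows and in none of the H1, H3 or H4 windows. The window of Hist1h4h held none of the 3. Windows of divergent H2A and H2B genes can overlap, and both strands were searched, so a single match can be counted for both genes. The H2A and H2B counts are thus not independent. A match is a run of letters and no measure of binding.

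Most members lie on chromosome 13 (GRCm38). The Hist1 cluster had 56 members, 25 of them between 21715763 and 22043676 and 30 between 23531050 and 23934851, with the H2A pseudogene Hist1h2al elsewhere on that chromosome. Hist2 had 10 members on chromosome 3 (96219865 to 96270132), Hist3 had 3 on chromosome 11 (58948920 to 58956830), and Hist4 was the single H4 gene Hist4h4 on chromosome 6 (136801553 to 136804415). The annotation lists 67 members as protein-coding and 3 as pseudogenes (Hist1h2aj, Hist1h2al and Hist3h2bb-ps). In 64 members every transcript deposited under the symbol has 1 exon. H2A and H2B genes stood head to head within 500 nt in 13 places, with 172 to 305 nt between their annotated starts.

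The libraries held 17205714, 23248522, 16790975 and 25601259 reads as implied by the steps of their low values, so both libraries numbered 2 were deeper than both numbered 1. Keratinocyte markers were abundant in every library (Krt14 at 2176, 2549.5, 1435 and 2195 FPKM, fragments per kilobase of transcript scaled to sequencing depth), and endothelial markers summed to 0.56 to 1.66 FPKM. Leukocyte markers were lower in cKO than in the control of the same number in 8 of 8 genes, beside 37.6% of all genes tested, with sums of 309, 376, 176 and 269 FPKM. Erythroid markers summed to 310.0, 799, 1164 and 381 FPKM. Mettl14 itself measured 7.00, 6.4, 5.89 and 3.79 FPKM, lower in both cKO libraries, and limma's moderated test did not call it (log2 difference -0.42, SE 0.26, adjusted p = 0.959). Nothing in the labels ties the libraries to different animals, so every p-value rests on library spread that may be technical, and 2 against 2 cannot give a two-sided exact permutation p below 0.333.

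Histone RNA was abundant. The 70 members summed to 8459, 14506, 7391 and 19607 FPKM, which was 1.67%, 2.37%, 1.40% and 3.10% of all FPKM. Both libraries numbered 2 stood above both numbered 1, and cKO held the lowest and the highest library. The sum in library 2 was 1.71 times that in library 1 in control and 2.65 times in cKO. The mean was 11483 ± 4276 FPKM (SD, n = 2) in control and 13499 ± 8638 FPKM (SD, n = 2) in cKO, a log2 difference of 0.12 beside a pooled SD of 0.80. Leaving out cKO 1 or cKO 2 moved it to 0.82 or -0.58, and leaving out control 1 or control 2 to -0.27 or 0.51. Within number 1 cKO was at 0.874 times control, and within number 2 at 1.35 times, so the direction turned with the number. In these bulk libraries, fewer cells in S phase and less histone RNA per cell cannot be told apart.

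Each histone type followed this order. H4, which with H3 forms the core of the nucleosome, summed to 3413, 6027, 3098 and 8469 FPKM. H2A summed to 1437, 2384, 1263 and 3156 FPKM, and H2B, its partner, to 1244, 2256, 1161 and 3063 FPKM. H3 summed to 1159, 1898, 896 and 2478 FPKM, and H1, the linker histone, to 1206, 1941, 973 and 2441 FPKM. In all 5 types cKO 1 was the lowest library and cKO 2 the highest, and the log2 differences of cKO from control lay between 0.01 in H3 and H1 and 0.18 in H4, beside pooled SDs of 0.75 to 0.83.

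**Figure D1:**
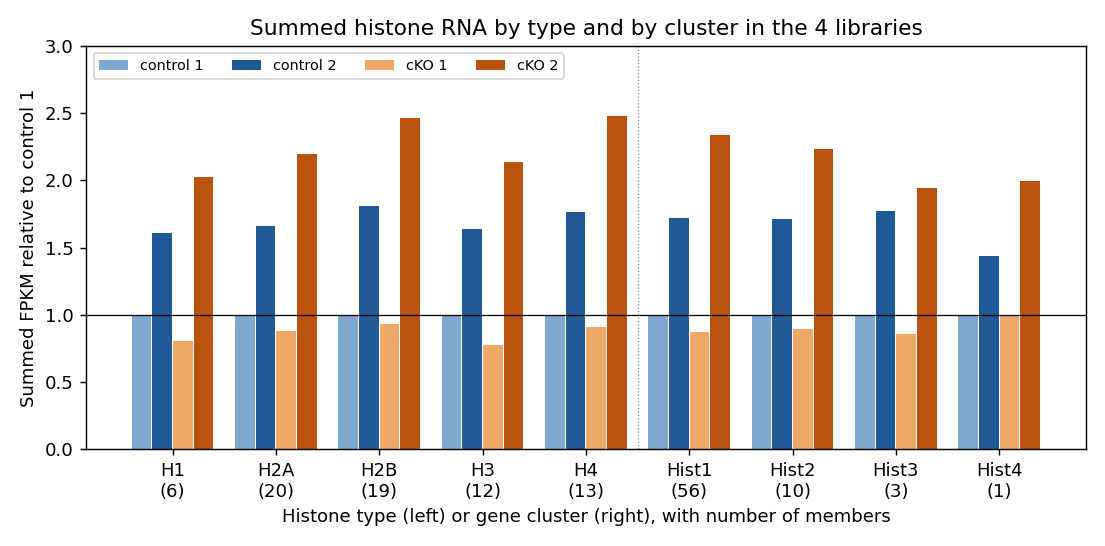
Summed FPKM of each histone type and each gene cluster, divided by the sum in control 1 (bars for control 1, control 2, cKO 1 and cKO 2, 1 bar per library, no error bars). In each type cKO 1 lies below 1 and cKO 2 is the tallest bar, and the 2 libraries numbered 2 stand above those numbered 1.

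The makeup of the histone RNA moved far less than its amount. H4 made up 40.3%, 41.5%, 41.9% and 43.2% of the sum, while H1 made up 12.5% to 14.3%, H2A 16.1% to 17.1%, H2B 14.7% to 15.7% and H3 12.1% to 13.7%. The 6 most abundant genes, Hist1h4h, Hist2h2aa1, Hist1h4c, Hist1h4d, Hist1h4n and Hist1h1e, held 38.5% to 40.5% of the sum in every library. The clusters moved alike. Hist1 summed to 7316, 12559, 6367 and 17086 FPKM and Hist2 to 1009.6, 1731, 900.6 and 2257 FPKM. Hist3 summed to 70.0, 124, 59.8 and 136 FPKM, and Hist4h4 measured 63.9, 91.8, 63.9 and 127 FPKM. Within Hist1 the block between 21715763 and 22043676 differed more between the cKO libraries (3.29 times higher in cKO 2) than the block between 23531050 and 23934851 (2.53 times), and in control the ratios were 1.77 and 1.70.

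Of the 70 members, 67 passed the filter of at least 1 FPKM in at least 2 libraries. The testis H2A and H2B pair Hist1h2aa and Hist1h2ba was listed at 0 in every library, and the pseudogene Hist1h2al reached at most 0.34 FPKM. Means over the 4 libraries were at least 10 FPKM in 61 members and at least 100 FPKM in 31, and 54 members had at least 100 implied reads in every library. Mean levels of single tested members spread over more than 2 orders of magnitude within H1, H2A, H2B and H3. In H4 they ran from 19.4 to 1174 FPKM. The plot of each gene by library shows these levels.

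**Figure D2:**
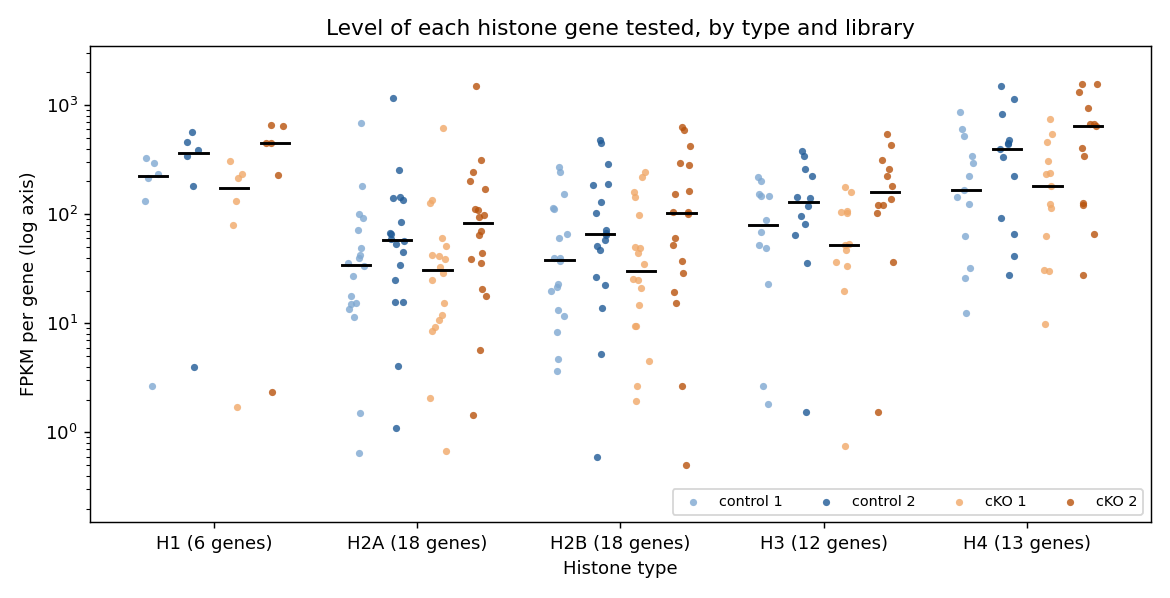
FPKM of each of the 67 histone genes tested (points, log axis), by histone type and library, with a black bar at the median of the genes. The medians are lower in control 1 and cKO 1 than in control 2 and cKO 2 in every type.

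No member passed limma's test on log2(FPKM + 1) at an adjusted p of 0.05, and 0% of the 13817 genes tested did. At an unadjusted p of 0.05, 1 member of 67 passed, beside 4.96% of all genes, and limma-voom on recovered reads also called none. The median difference of cKO from control was 0.10 over the members, -0.03 over all genes tested and 0.08 over 333 other single-exon coding genes. Without cKO 1 the members' median was 0.79 and without cKO 2 it was -0.60, while without control 1 or control 2 it was -0.26 or 0.49, so its sign rested on which library was kept. The SE of a member's difference ranged from 0.22 to 1.43 with a median of 0.55, and adjusted p ranged from 0.959 to 0.999. On simulated data the same test recovered 0% of genes changed 2-fold and 70.5% of those changed 4-fold. This fit, with genotype as its only term, thus had little power for a 2-fold change in a single histone gene. The simulated libraries were drawn independently, with the spread fitted over all genes and no shift shared between library numbers. The 4-fold share therefore does not carry over to the histone genes, whose libraries differed strongly between numbers.

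The order of the libraries was the common feature. From low to high, 42 of the 67 members (62.7%) stood in the order cKO 1, control 1, control 2, cKO 2, which 8.16% of all genes tested did. Library 2 exceeded library 1 within both genotypes in 63 members, beside 46.6% of all genes. Both libraries numbered 2 lay above both numbered 1 in 62 members (92.5%), beside 32.8% of all genes. The 5 others were Hist1h1t, Hist1h2br, Hist1h3b, Hist2h2be and Hist2h3c2. A level at least 1.5 times higher in library 2 in both genotypes was found in 50 members, beside 6.67% of all genes. Sequencing depth had the same split between numbers. So had the sum of all FPKM, at 505075, 611466, 529298 and 631651. The sum of value times transcript length was nearly equal, so libraries numbered 2 held relatively more reads on short transcripts. The part of depth or of transcript length in the histone values was not tested.

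Within number 1 the median difference of cKO from control was -0.21 over the members, and within number 2 it was 0.41, beside -0.03 and -0.02 over all genes. Lower in cKO 1 and higher in cKO 2 than in the control of the same number described 43 members, 64.2% of them and 15.5% of all genes. Another 16 members were higher in cKO within both numbers (23.9%, all genes 31.8%) and 8 were lower within both (11.9%, all genes 37.6%). No member had both cKO libraries above both controls, which 16.2% of all genes had. In 3 members, Hist1h1t, Hist2h2be and Hist2h3c2, both cKO libraries lay below both controls, beside 16.6% of all genes. For Hist2h3c2 cKO 2 at 1.53 FPKM was barely below control 2 at 1.55 FPKM, and its smallest value rested on 12.8 implied reads. Neither share of non-overlapping members exceeded that of all genes.

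**Figure D3:**
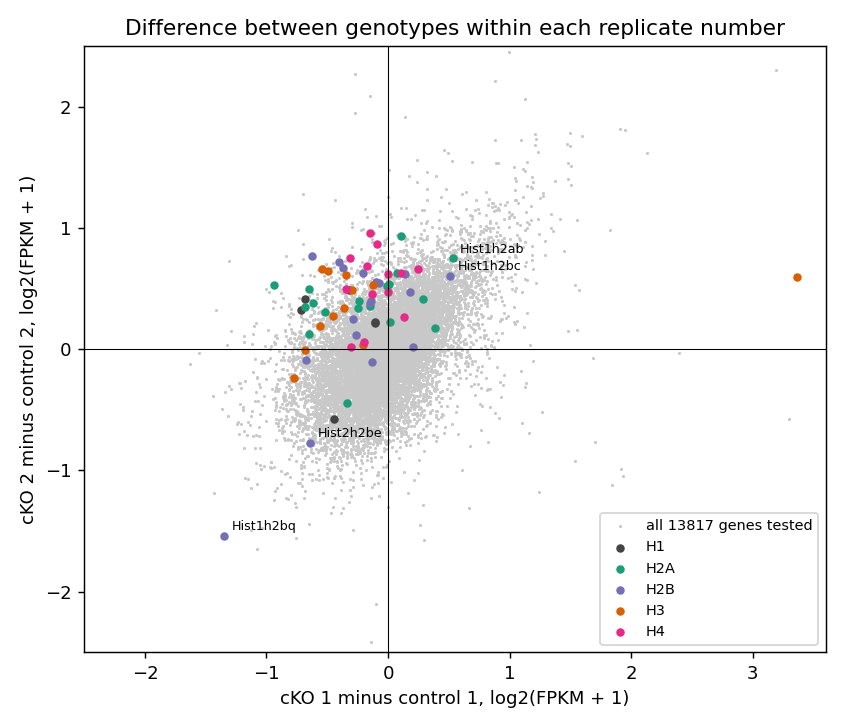
Difference of cKO from control within number 1 (x axis) and within number 2 (y axis), on the log2(FPKM + 1) scale, for all 13817 genes tested (grey) and the 67 histone genes (coloured by type). Most histone genes sit in the upper left, lower in cKO 1 and higher in cKO 2. Hist1h2ab and Hist1h2bc are higher in cKO within both numbers, and Hist2h2be and Hist1h2bq lower within both.

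Among H4 genes, Hist1h4h (ENSMUST00000102972, chromosome 13, 23531050 to 23531519) was the most abundant member of all. It measured 863, 1507, 752 and 1573 FPKM. On the log2 scale cKO differed from control by -0.20 within number 1 and by 0.06 within number 2, with a difference between genotypes of -0.07 (SE 0.57). Hist1h4c measured 605, 1133, 550.5 and 1552 FPKM. Hist1h4d measured 520.1, 828, 461 and 1329.7 FPKM. For both genes each genotype spanned a wider range than the distance between genotypes, with differences of 0.16 and 0.25 (SE 0.64 and 0.60).

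Hist1h4n measured 339, 482, 306 and 936 FPKM, and its neighbour Hist1h4m, with an identical coding sequence, 143, 399, 115 and 670.4 FPKM. In both the highest library was cKO 2 and the lowest cKO 1, and Hist1h4m had the widest ratio between cKO libraries of any tested member, 5.85. Reads from the shared coding sequence cannot be assigned to one of the pair, so the split between them is uncertain. Hist2h4 was the H4 gene with the largest positive difference, 0.45 (SE 0.41), from 26.1, 41.4, 31.2 and 65.9 FPKM. Hist1h4i had the lowest, -0.14 (SE 0.55), from 12.5, 27.5, 9.93 and 27.8 FPKM. No H4 gene was lower in cKO within both numbers, 4 were higher within both, and all 13 had both libraries numbered 2 on top.

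The 4 most abundant H3 genes were Hist1h3c, Hist1h3a, Hist1h3e and Hist1h3f. Hist1h3c measured 219, 384, 178 and 539.6 FPKM, and Hist1h3a measured 204, 344, 159 and 434 FPKM. Both stood in the common order, with differences of 0.10 (SE 0.59) and -0.01 (SE 0.55). Hist1h3e measured 148, 259, 108 and 314 FPKM and Hist1h3f 154, 227, 104 and 258 FPKM. Their differences, -0.09 (SE 0.57) and -0.19 (SE 0.48), were again smaller than the spread within a genotype. Hist1h3d had the lowest difference among H3 genes, -0.51 (SE 0.46), from 89.4, 143, 51.8 and 121 FPKM. It was lower in cKO within both numbers, and the genotypes overlapped.

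Hist2h3c1 on chromosome 3 (96246685 to 96248504) had the largest difference of any member, 1.98, and also the largest SE, 1.43 (adjusted p = 0.959). It measured 2.65, 80.8, 36.7 and 123 FPKM. The lone low value in control 1 set the difference, since the other 3 libraries lay between 36.7 and 123. Without control 1 the difference was -0.26, and without control 2 it was 4.23 and passed limma's test (adjusted p = 8.24e-19). Its copy Hist2h3c2, identical in coding sequence, measured 1.81, 1.55, 0.75 and 1.53 FPKM. Their sum was 4.46, 82.3, 37.5 and 124 FPKM, a sum set by Hist2h3c1, since control 1 was the highest library of Hist2h3c2.

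H2A genes were led by Hist2h2aa1 of the Hist2 cluster, at 685, 1177, 619.6 and 1504 FPKM. Its identical copy Hist2h2aa2 was listed at 1.5, 4.06, 2.06 and 5.72 FPKM, and the sum of both was 687, 1181, 622 and 1510.1 FPKM. Hist2h2ac measured 183, 257, 128 and 317 FPKM, and Hist1h2ao measured 99.7, 141, 51.4 and 203 FPKM. These genes stood in the common order, and their differences of 0.10, -0.11 and -0.21 had SEs of 0.59, 0.48 and 0.64. Hist1h2ao shares its coding sequence with Hist1h2ap, so its separate value is uncertain.

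Hist1h2ab (ENSMUST00000078369, chromosome 13, 23751126 to 23751598) departed from the common order. It measured 93.0, 145, 135 and 245 FPKM. Each cKO library was above the control of the same number, by 0.53 and 0.75 on the log2 scale, while cKO 1 remained below control 2. Its difference of 0.64 (SE 0.39, adjusted p = 0.959) was the largest among the 31 members with at least 100 FPKM, and limma did not call it. Hist1h2ad had the lowest difference among H2A genes, -0.39 (SE 0.73), from 15.4, 54.0, 12.02 and 39.3 FPKM. Of the 18 H2A genes tested, 7 were higher in cKO within both numbers, and 1, Hist1h2ad, was lower within both.

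The abundant H2B genes Hist1h2bb, Hist1h2bg and Hist1h2bj followed the common order. Hist1h2bb measured 246, 481, 222 and 627 FPKM. Hist1h2bg measured 270.3, 447, 245 and 589 FPKM. Hist1h2bj measured 154, 289, 144 and 425 FPKM. Their differences were 0.12, 0.13 and 0.23, with SEs of 0.60, 0.52 and 0.59, and cKO held both the lowest and the highest library of each.

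Hist1h2bc (ENSMUST00000018246, chromosome 13, 23684199 to 23692908) has 2 exons and no stem-loop in its annotated transcript. It measured 111, 187, 159 and 285 FPKM. As in Hist1h2ab, each cKO library was above its control, by 0.51 and 0.61, and the genotypes overlapped (difference 0.56, SE 0.41, adjusted p = 0.959). Hist1h2ac, on the other side of the promoter region printed above, measured 72.3, 136, 60.7 and 172 FPKM. It was lower in cKO within number 1 and higher within number 2, by -0.25 and 0.34, so the members of this divergent pair did not share the pattern within number 1.

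Hist2h2be, an H2B gene with a long annotated 3′ end and no stem-loop, was the member with the smallest p. It measured 4.75, 5.25, 2.69 and 2.66 FPKM. Libraries of 1 genotype nearly coincided and both cKO libraries lay below both controls, a difference of -0.71 (SE 0.22, unadjusted p = 0.0186, adjusted p = 0.959). At least 118 implied reads lay behind each value. Its divergent H2A partner Hist2h2ac, with the common order, was at 57.7 times its mean FPKM, a ratio that depends on the annotated lengths.

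Transcripts of more than 1 exon stood under the symbols of 6 members, all of them H2B genes, and several also were low. For Hist2h2bb this was a transcript that GENCODE M21 places in Gm42743, a long noncoding RNA gene. Hist1h2bq measured 13.1, 46.9, 4.55 and 15.5 FPKM. Nearly all of this came from a 3-exon transcript that GENCODE M21 types as nonsense-mediated decay. Hist1h2bq was lower in cKO within both numbers, by 1.35 and 1.54 on the log2 scale, but cKO 2 lay above control 1 (difference -1.44, SE 0.72, adjusted p = 0.959). Without control 1 the difference was -2.32 and passed limma's test (adjusted p = 9.15e-05). The transcript deposited as Hist1h2bh belongs to Hist1h2bq in GENCODE M21, and the sum of the 2 symbols, 52.7, 105, 29.9 and 116 FPKM, stood in the common order. The H2B gene Hist1h2br measured 3.69, 0.60, 1.93 and 0.50 FPKM, the only tested member with both libraries numbered 2 below both numbered 1. Added to Hist1h2bm, whose transcript GENCODE M21 places in Hist1h2br, it gave 40.7, 72.8, 37.0 and 107 FPKM, again in the common order.

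Hist1h2be measured 60.7, 129, 49.4 and 153 FPKM, with 1 of its 3 transcripts listed at 0 in 3 libraries and at 81.0 FPKM in cKO 2. The gene stood in the common order, and the split between its transcripts is not interpreted here. Hist1h2bp measured 11.7, 26.5, 9.54 and 28.7 FPKM. Hist2h2bb measured 65.8, 103, 50.6 and 164 FPKM, nearly all from its single-exon transcript. Both were in the common order, with differences of -0.08 (SE 0.58) and 0.15 (SE 0.57).

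Of the 6 linker histone genes, 5 stood in the common order and the testis form did not. Hist1h1e measured 331, 568, 307 and 663 FPKM, and Hist1h1d measured 295, 461, 237 and 647 FPKM. Hist1h1c measured 233, 386, 215 and 448 FPKM and Hist1h1b measured 213, 339.9, 133 and 453 FPKM. These 4 had differences between -0.13 and 0.08 and SEs of 0.47 to 0.62. Hist1h1a measured 132, 182, 79.7 and 228 FPKM, with a difference of -0.20 (SE 0.52). Between cKO libraries the ratio ran from 2.08 in Hist1h1c to 3.42 in Hist1h1b. The annotated transcript of Hist1h1d is 7425 nt long, and a level per length depends on that annotation. Hist1h1t, the testis H1, measured 2.68, 3.99, 1.70 and 2.35 FPKM, with both cKO libraries just below both controls (difference -0.51, SE 0.27, adjusted p = 0.959). Only 26 implied reads lay behind its smallest value.

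Members were grouped by the annotated 3′ end of their main transcript. In the 22 members with a stem-loop and at most 100 nt after it, the median ratio of library 2 to library 1 was 1.73 in control and 2.83 in cKO. In the 22 with a stem-loop and more than 100 nt after it, the medians were 1.66 and 2.63. The 17 members annotated to at most 50 nt after the stop codon, with no stem-loop in that stretch, had medians of 1.59 and 2.93. The 4 with a longer end and no stem-loop were spread: Hist1h2bq at 3.57 and 3.40, Hist1h2bc at 1.68 and 1.79, Hist2h2be at 1.11 and 0.989, and Hist1h2br at 0.163 and 0.259. Over all tested members the medians were 1.66 in control and 2.78 in cKO, and the ratio was higher in cKO than in control in 60 of 67. The class was defined with these values known, so it was not tested.

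**Figure D4:**
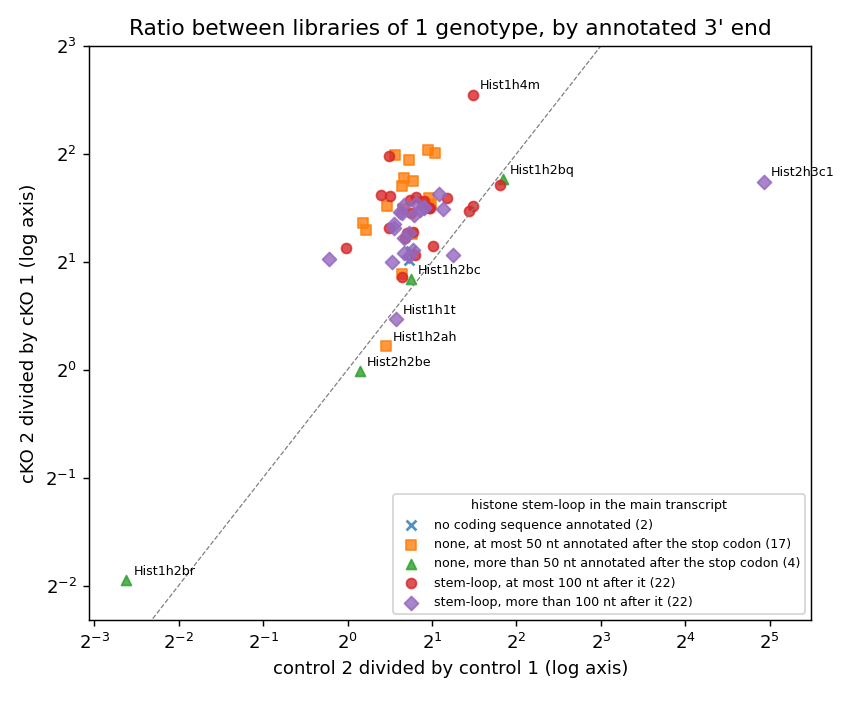
Ratio of library 2 to library 1 in control (x axis) and in cKO (y axis) for the 67 histone genes tested, on log axes, with the symbol giving the annotated 3′ end and the dashed line equal ratios. Of the 67 genes, 60 lie above the line. The 7 below it are Hist1h1t, Hist1h2ad, Hist2h3c1 and Hist3h2ba with a stem-loop, Hist1h2ah with a short annotated end, and Hist1h2bq and Hist2h2be.

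Divergent H2A and H2B genes did not have equal levels. Of 15 annotated pairings, 14 were measured above 0, and the higher gene was at 1.12 to 57.7 times the lower by mean FPKM. These ratios depend on annotated length, which in the pair at 57.7 was 520 nt for Hist2h2ac and 2620 nt for Hist2h2be. The closest pair was Hist1h2ak and Hist1h2bn, at means of 56.9 and 63.9 FPKM. Hist1h2bg exceeded Hist1h2ae 5.36-fold across a gap of 175 nt. Some pairings share a gene under 2 symbols, as described for Hist1h2bh and Hist1h2bq.

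Near-identical copies limit the values of single genes. Of 58 members compared at equal coding length within a type, 48 had another member at 95% identity or more and 11 had an identical one. The median identity to the closest member was 98.7%, and by type the medians ran from 96.8% in H4 to 99.0% in H2A. H1 genes differ in length and were not compared. Where each read was counted once, the sum over the copies of a type depends on this split only through their annotated lengths.

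Genes of the replication machinery followed the same library order with smaller ratios. Over a list of 44 S phase genes the FPKM summed to 780, 962, 650.4 and 1149.7. Pcna, the sliding clamp, measured 93.1, 114, 79.4 and 120.2 FPKM, and the helicase subunit Mcm6 measured 44.9, 55.4, 41.0 and 66.2 FPKM. The common order was found in 29 of 44, and the median difference was -0.25 within number 1 and 0.23 within number 2. None passed limma's test, and 0 of 44 had an unadjusted p under 0.05. The gene with the smallest p was Fen1, which trims flaps on the lagging strand, at 14.4, 20.2, 21.2 and 45.5 FPKM (difference 0.83, SE 0.39, adjusted p = 0.959).

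The histone sum divided by the S phase sum was 10.9 and 15.1 in control and 11.4 and 17.1 in cKO. Within each number this ratio differed by less between genotypes (1.05 and 1.13 times higher in cKO) than between numbers of 1 genotype. G2 and mitosis genes had the common order in 10 of 16, with median differences of -0.63 and 0.12 within numbers 1 and 2. The most abundant of them was Top2a, a topoisomerase, at 85.6, 77.8, 50.1 and 63.9 FPKM, with both cKO libraries below both controls. Cdk1, the kinase that starts mitosis, measured 36.8, 48.8, 25.3 and 74.7 FPKM, in the common order. The mitotic kinase gene Aurka measured 10.6, 17.7, 6.54 and 24.7 FPKM. Kif11, a spindle motor, measured 24.6, 18.7, 13.9 and 13.0 FPKM, with both cKO libraries below both controls (difference -0.64, SE 0.22, adjusted p = 0.959). Such a separation was found in 3 of the 16 genes, a share near the 16.6% of all genes.

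The summed level of a list of histone variant genes differed less between numbers. The 11 variants listed as replication-independent summed to 1402, 1782, 1352 and 1793 FPKM, a ratio of library 2 to 1 of 1.27 in control and 1.33 in cKO. The sum stood in the common order too. It was led by H3f3a, H3f3b and H2afz, the last at 224, 264, 223 and 330 FPKM. H3f3a, which encodes H3.3, measured 416, 576, 439 and 526 FPKM, and H3f3b, which encodes the same protein, measured 399, 457.5, 366 and 398 FPKM. H2afx, the variant with a histone stem-loop, measured 64.0, 116, 49.9 and 135 FPKM. Its ratios of library 2 to 1 were 1.81 and 2.71, and those of H3f3a were 1.39 and 1.20. Variants without a stem-loop spanned a wide range too: the ratios of H2afv were 1.61 and 2.23, those of the centromeric H3 gene Cenpa 1.14 and 2.31, and those of the low linker gene H1fx 3.04 and 5.43. The common order was found in 6 of the 11. None of the 11 had an unadjusted p under 0.05.

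Among 24 genes for histone mRNA synthesis and processing, 23 were tested and none passed limma's test. Only 1 had an unadjusted p under 0.05, beside 4.96% of all genes. That gene was Lsm10, a subunit of the U7 particle, at 10.8, 12.6, 24.8 and 36.7 FPKM. Both cKO libraries lay above both controls (difference 1.30, SE 0.26, unadjusted p = 0.00265, adjusted p = 0.959). Lsm11, the other U7-specific subunit, measured 2.63, 3.76, 4.35 and 5.59 FPKM, also without overlap (difference 0.51, SE 0.26). The most abundant genes of the list, Snrpb and Snrpe, encode Sm proteins. Snrpb measured 79.1, 106, 91.2 and 145 FPKM and Snrpe 48.0, 51.8, 49.5 and 71.2 FPKM. Both cKO libraries exceeded both controls in 6 of the 23, beside 16.2% of all genes, and fell below them in 1.

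Slbp, which encodes the stem-loop binding protein, measured 26.9, 31.2, 23.1 and 29.7 FPKM, with the genotypes overlapping. Npat, the coactivator of histone genes, measured 11.4, 9.64, 11.6 and 6.83 FPKM. Neither Slbp nor Npat had the common order of the histone genes. Mif4gd, a partner of SLBP in translation, measured 17.3, 18.8, 24.9 and 25.4 FPKM, without overlap (difference 0.46, SE 0.19, adjusted p = 0.959). The 23 histone chaperone genes had a median difference of -0.04, and 6 had the common order. The most abundant, Ssrp1 of the FACT complex, measured 69.5, 87.5, 68.0 and 95.5 FPKM, and Rbbp7 measured 66.2, 86.4, 59.7 and 78.0 FPKM. Nasp, a carrier of H3 and H4, measured 54.9, 58.3, 46.8 and 48.7 FPKM, and Asf1b, an S phase chaperone, 10.7, 12.6, 8.08 and 19.2 FPKM.

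RNAs without a poly(A) tail also differed between numbers, and the labels name both poly(A) selection and ribosomal RNA removal without saying which was used. Rpph1, the RNA of ribonuclease P, measured 25574, 76162, 46835 and 76546 FPKM, and Rmrp measured 16413, 44696, 21652 and 42185 FPKM. Terc, the telomerase RNA, measured 11.2, 28.9, 18.8 and 32.5 FPKM, and Rn7sk was listed at 0. All 3 measured RNAs were higher in both libraries numbered 2, with sums 2.88 times higher in control and 1.73 times in cKO. The part of this difference in the histone values was not tested. Unlike the histone genes, these RNAs had a larger ratio in control than in cKO.

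**Figure D5:**
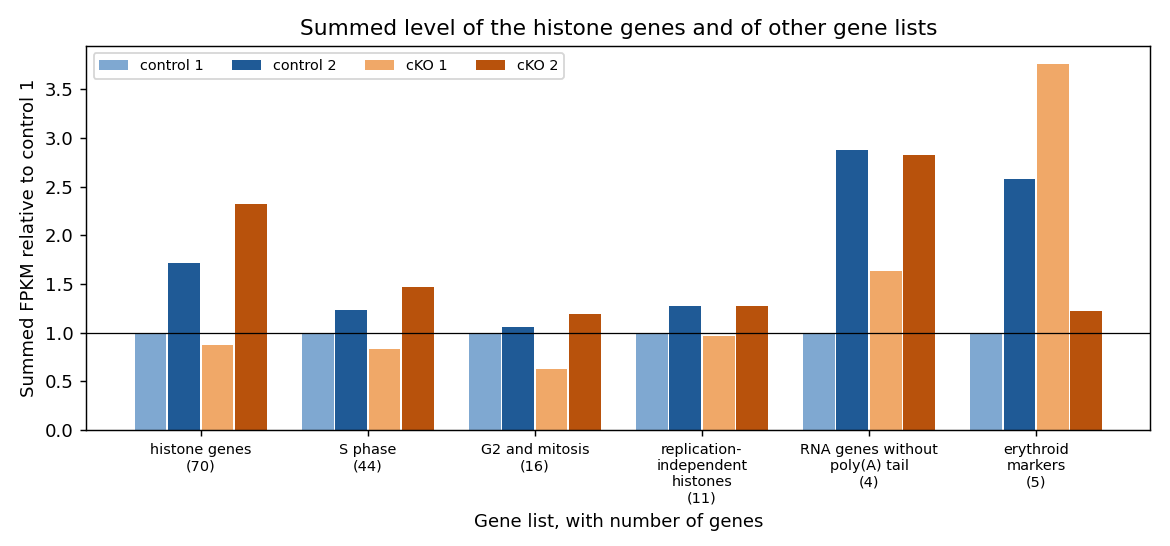
Summed FPKM of the histone genes and of 5 other gene lists, divided by the sum in control 1 (1 bar per library, no error bars). Histone, S phase, G2 and mitosis genes and the replication-independent histones share the order cKO 1, control 1, control 2, cKO 2. RNA genes without a poly(A) tail have control 1 lowest and erythroid markers have cKO 1 highest.

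No leukocyte, melanocyte, fibroblast, erythroid or keratinocyte marker tested stood in the common order. The leukocyte sums were lower in cKO within both numbers, and the erythroid markers had cKO 1 highest. Library 2 exceeded library 1 within both genotypes in 5 of 8 leukocyte and 6 of 10 keratinocyte markers, beside 46.6% of all genes. Among keratinocyte genes, the differentiation keratin gene Krt10, at 15342, 5382, 12142 and 6217 FPKM, was higher in both libraries numbered 1. Krt5 of the basal layer, at 897, 1332, 500.4 and 968 FPKM, was higher in both libraries numbered 2. Both libraries numbered 2 lay above both numbered 1 in 3 of the 10 keratinocyte markers, beside 32.8% of all genes. The part of these markers in the histone differences was not tested.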

How the data were processed

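Transcript levels of epidermal keratinocytes from newborn mice were analysed in 2 control and 2 cKO libraries. Per the submitters' processing notes, fastp, HISAT2, HTSeq and the build GRCm38 were used. Which annotation, versions and roles applied is not given in the sources used here. No unit stands in the header. The deposited values were read as the authors' FPKM, since the sums of value and transcript length multiplied, over 1000, came to 1016302, 1019474, 1015550 and 1021998; RPKM would look the same. The labels' protocols do not state strand, so antisense reads cannot be separated.

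FPKM of 110295 transcripts were summed per symbol, after 162 symbols turned into dates were restored by transcript ID. The 13817 genes that reached 1 FPKM in 2 or more libraries entered limma's moderated test on log2(FPKM + 1), which understates changes of low genes, with a mean-variance trend, genotype only, 2 residual degrees of freedom and Benjamini-Hochberg adjustment. Low values were whole multiples of 1 read, within 0.2 reads, in 94.9% to 95.5% of cases, which gave the implied depths. An exact 0 may be a failed estimate. Lengths, coordinates and stem-loops came from GENCODE M21 (98.0% of transcripts matched), promoters from RefSeq.

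Values in every library are given, per type, for the 4 most abundant members, those with the largest positive and negative difference and those with a transcript of more than 1 exon, and from the S phase, mitosis, variant, processing and chaperone lists for the 2 most abundant genes. The rule also allowed up to 4 genes per list with the smallest p, of which only some are given. Further genes were named after their values were seen. The members and gene lists were chosen with earlier results of these data known. Alternatives were median-ratio scaling, a pseudocount of 0.1, 2 other filters, limma-voom run on recovered reads, a block for the replicate number, each library left out, and, for sums, single-exon transcripts only or no members with identical coding sequence. On simulated data with 200 of 13817 genes changed, limma recovered 0% at 2-fold, 70.5% at 4-fold and 92.5% at 8-fold, calling 0, 10 and 6 unchanged genes. The simulated libraries were independent, with the spread fitted over all genes and no shift between library numbers. Software was limma 3.58.1 in R 4.3.3, and matplotlib 3.10.9, pandas 2.3.3 and numpy 2.4.6 in Python 3.11.15.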

Additional observations from a re-analysis of the deposited data

How the results depend on the processing

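The 2 libraries of a genotype differed so much that leaving out 1 of them turned most differences. Without cKO 1, control 1, control 2 or cKO 2 limma called 71, 14, 37 and 9 of all genes, a range of 9 to 71. It called 0 to 1 histone genes: Hist1h2bq without control 1 and Hist2h3c1 without control 2. These fits take the spread of the lone library from the other genotype. The median difference over the histone genes ranged from -0.60 to 0.79. The summed FPKM of all members ranged from -0.58 to 0.82 (log2), of H1 from -0.65 to 0.67, H2A from -0.55 to 0.77, H2B from -0.53 to 0.87, H3 from -0.73 to 0.74, H4 from -0.55 to 0.90, Hist1 from -0.59 to 0.83, Hist2 from -0.55 to 0.77, Hist3 from -0.64 to 0.54 and Hist4 from -0.26 to 0.73. Among named genes whose direction turned, the ranges were: Hist1h1b from -1.02 to 0.75, Hist1h1c from -0.47 to 0.58, Hist1h1d from -0.64 to 0.81, Hist1h1e from -0.50 to 0.61, Hist1h2ad from -1.26 to 0.48, Hist1h2ao from -1.19 to 0.78, Hist1h2bb from -0.63 to 0.86, Hist1h2be from -0.83 to 0.78, Hist1h2bg from -0.50 to 0.76, Hist1h2bj from -0.55 to 1.00, Hist1h2bp from -0.82 to 0.67, Hist1h2br from -1.16 to 0.39, Hist1h3a from -0.73 to 0.71, Hist1h3c from -0.70 to 0.89, Hist1h3d from -1.11 to 0.10, Hist1h3e from -0.86 to 0.68, Hist1h3f from -0.84 to 0.46, Hist1h4c from -0.59 to 0.91, Hist1h4d from -0.51 to 1.02, Hist1h4h from -0.60 to 0.46, Hist1h4i from -0.84 to 0.55, Hist1h4n from -0.40 to 1.21, Hist2h2aa1 from -0.53 to 0.74, Hist2h2ac from -0.76 to 0.55, Hist2h2bb from -0.69 to 0.99, Hist2h3c1 from -0.26 to 4.23 and Hist2h4 from -0.077 to 0.98.

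The replicate numbers are not stated to mark a shared animal or day, and 2 pairs cannot establish pairing; the change from library 1 to 2 correlated between genotypes at 0.72 across 13817 genes. With the replicate number as a block limma called 900 of 13817 genes (6.51%) and 5 of 67 histone genes (7.46%), a share near that of all genes: Hist1h2ab (adjusted p = 0.0177) and Hist1h2bc (adjusted p = 0.0240), higher in cKO, Hist1h2bq (adjusted p = 0.00240) and Hist2h2be (adjusted p = 0.0430), lower, and Hist2h3c1 (adjusted p = 0.0485), higher. The call of Hist1h2bq covers that symbol alone, without the transcript of the same gene deposited as Hist1h2bh. In the other lists the block also changed the call of Lsm10 (adjusted p = 0.00377), Fen1 (0.0224), Kif11 (0.0309), Cenpf (0.0310) and Atrx (0.0220). They were 1 of 23 processing (4.35%), 1 of 44 S phase (2.27%), 2 of 16 mitosis (12.5%) and 1 of 23 chaperone genes (4.35%). Also called were 5 of 8 leukocyte (62.5%), 3 of 10 keratinocyte (30%) and 1 of 6 fibroblast markers (16.7%), beside 6.51% of all genes. Scaling, pseudocount, filters, limma-voom and single-exon transcripts kept the direction and the side of the threshold of every result computed with them. So did leaving out members with an identical coding sequence, except that the summed H3 difference went from 0.0069 to -0.026. The low read numbers of Hist1h1t, Hist1h2br and Hist2h3c2 and the identical copies limit what can be said of single genes.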
